A study of Mus musculus with 4 samples.

Results

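The FGF pathway genes of the embryonic mouse ovary comprised 35 rows of the count table, chosen by name among 34682 rows. They were the 22 fibroblast growth factor (FGF) ligands, the 5 receptor genes Fgfr1 to Fgfr4 and Fgfrl1, and 8 genes that restrain or report FGF signalling through ERK, namely Spry1, Spry2, Spry4, Spred1, Spred2, Etv4, Etv5 and Dusp6. RNA was sequenced from developing ovaries at E13.5 (the embryonic day) in 4 libraries, 2 of the Sall1 mutant and 2 of the wild-type genotype. The mutants carried a BAC transgene, a large genomic insert in which the regulatory elements and promoter of Wt1 drive the coding sequence of Sall1, so that Sall1 is overexpressed in somatic gonadal cells. The transgene was placed by PiggyBac transposition in female embryonic stem cells from C57BL/6J embryos, for which the methods also name a C57BL/6J-129 hybrid background, and mice were made by morula aggregation. The wild-type samples carried no transgene. They are described as littermates in the results of the study, as CD1 in its methods and as B6 in the names of the count columns, so strain and genotype cannot be told apart here. Whether the libraries came from pooled embryos or from 1 or more stem cell clones is not given in the sources used here, and p-values measure only the spread between these libraries.

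FGF ligands are secreted proteins that bind tyrosine kinase receptors together with heparan sulfate, and the activated receptors signal mainly through RAS and ERK. ERK signalling in turn induces inhibitors of the same pathway, among them the Sprouty and Spred proteins and the phosphatase Dusp6, and the ETS factors Etv4 and Etv5, which are therefore read as markers of active FGF signalling. In the fetal gonad, Fgf9 is known as a ligand of the developing testis, where it acts through Fgfr2 to sustain Sox9 and the Sertoli cell fate, and it is repressed as the ovary develops.

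Sall1, the overexpressed gene, was higher in both mutants (1243 and 1445 counts) than in either wild-type library (279 and 223 counts), which is the direction of the labels, and edgeR's quasi-likelihood test gave an adjusted p of 0.00823 for a log2 fold change of 2.85 ± 0.16 (standard error). Unless another test is named, adjusted p-values are by this one, with the Benjamini-Hochberg method over all genes tested. Total counts lay between 11036313 and 17869840, and a count of 3, the smallest taken as told from absence, stood for 0.170 to 0.272 CPM (gene counts relative to the TMM-adjusted library size). This floor covers counting error only. All of 8 germ cell markers and 9 pre-granulosa markers were tested. Summed germ cell markers lay between 1643 and 1960 CPM and overlapped between the groups, whereas summed pre-granulosa markers were 798 and 781 CPM in mutants against 697 and 708 CPM in wild-type ovaries, without overlap. Summed blood markers were 3223 and 881 CPM in mutant replicates 1 and 2 and 3567 and 1737 CPM in the wild-type replicates, and summed skeletal muscle markers were 56.9 and 42.2 CPM against 193 and 35.9 CPM. Interstitial markers summed to 958 and 601 CPM against 918 and 862 CPM.

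Of the 35 genes, 23 passed edgeR's filter on low counts, and these were the same 23 that had a mean of at least 10 counts per library. None of the 23 differed between mutant and wild-type ovaries at an adjusted p under 0.05 in edgeR's quasi-likelihood test, and 0 did in DESeq2. Among all 15442 genes tested, 0.0583% passed in edgeR and 0.694% of 15127 in DESeq2. At an unadjusted p under 0.05 there were 2, the receptors Fgfr2 and Fgfr4, in edgeR (5.69% of all genes) and the same 2 in DESeq2 (2.51% of all genes). The fitted log2 fold changes of the 23 genes ranged from -1.25 to 0.31, with a median of -0.040 beside -0.00088 over all genes tested. The groups did not overlap for 5 of them, against 30.9% of all genes. These were Fgfr2, higher in both mutant libraries (15.8% of all genes), and Fgfr4, Etv4, Fgf2 and Spred1, lower in both (15.1% of all genes). For any single gene, exact permutation of 2 against 2 libraries stops at p = 0.333. In bulk tissue, fewer cells of a type and less RNA per cell cannot be told apart.

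**Figure D1:**
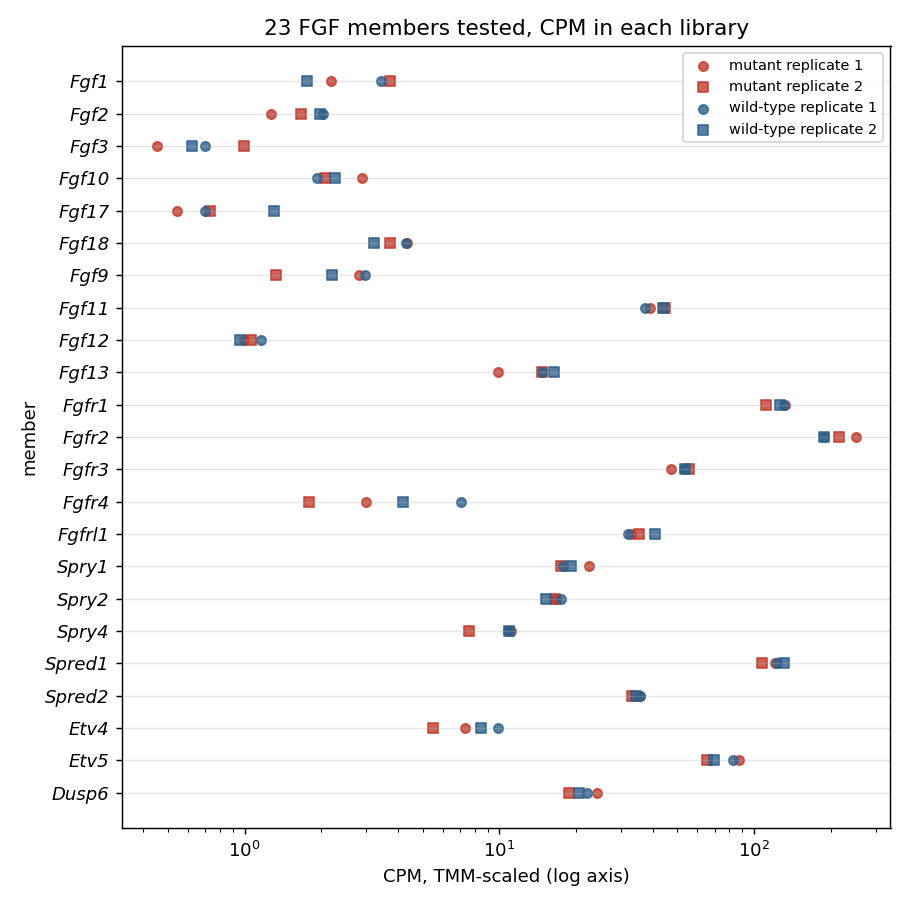
Level of each of the 23 FGF pathway genes tested, in CPM on a log axis, with 1 point for each library (red, mutant; blue, wild-type; circles, replicate 1; squares, replicate 2). Fgfr2 and Fgfr1 lie at the top of the range, secreted ligands mostly lie under 5 CPM, and the red and blue points are separated for Fgfr2, Fgfr4, Etv4, Fgf2 and Spred1.

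Fgf9 was present at a low level in ovaries of both genotypes. The mutants had 31 and 20 counts and the wild-type ovaries 51 and 39, or 2.81 and 1.33 CPM against 2.96 and 2.21 CPM. Mutant replicate 2 was the lowest of the 4, mutant replicate 1 lay between the wild-type libraries, and the groups overlapped. The exact Poisson interval (95%, counting error only) was 1.91 to 3.99 CPM in mutant replicate 1 and 0.812 to 2.05 CPM in mutant replicate 2, and the 2 intervals overlapped. The log2 fold change was -0.34 ± 0.45 (standard error), with a 95% interval from -1.40 to 0.72 and an edgeR adjusted p of 1.00. Log2 fold changes above 0.72 or below -1.40 lie outside this interval, which is not adjusted for the number of genes tested. Within it a rise cannot be told from a fall, and its ends are not limits of detection. Without mutant replicate 2 the log2 fold change was 0.12, and without mutant replicate 1 it was -0.96. GENCODE M1 places Fgf9 on the plus strand of NCBIM37 (mm9) chromosome 14, from 58689384 to 58731174, and no exon of another annotated gene overlaps its exons.

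The relatives of Fgf9 that use the same receptors were near or under the floor. Fgf20 was at 0 counts in both mutants and at 5 and 1 counts in wild-type ovaries, and part of its exons overlaps a gene on the opposite strand. Fgf16 had at most 1 count in any library. Neither passed the filter, and no fold change is given for them.

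Among the other secreted ligands, Fgf18 was the most abundant, with a mutant mean of 4.04 ± 0.448 CPM (SD, n = 2) beside a wild-type mean of 3.77 ± 0.757 CPM (SD, n = 2). Fgf10, a mesenchymal ligand that signals to epithelium through the Fgfr2b isoform, had 2.90 and 2.06 CPM in mutants and 1.92 and 2.27 CPM in wild-type ovaries. Its exons share 123 bases with a gene on the opposite strand, so its counts are uncertain. Fgf1, which can bind all FGF receptors, had 2.18 and 3.72 CPM against 3.43 and 1.76 CPM. The groups overlapped for all 3 genes, and for Fgf1 the pair of libraries numbered 1 and the pair numbered 2 differed in opposite directions, by -0.62 and 1.03 on the log2 scale. Fgf2, which like Fgf1 lacks a classical secretion signal, was lower in both mutant libraries, with 1.27 and 1.66 CPM against 2.03 and 1.98 CPM. Its log2 fold change was -0.44 ± 0.37 (standard error) with an edgeR adjusted p of 1.00, and 297 bases of its exons overlap genes on the opposite strand, so its counts are uncertain. Fgf3 and Fgf17 lay between 0.454 and 1.30 CPM in every library, with overlapping groups for both genes.

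The remaining ligands did not pass the filter. Of the 12 genes left out, all ligands, Fgf14 and Fgf21 were listed at 0 in every library. The others were Fgf4, Fgf5, Fgf6, Fgf7, Fgf8, Fgf15, Fgf16, Fgf20, Fgf22 and Fgf23. The highest count of any of them in a library was 11, for Fgf7 in mutant replicate 1, and 22 of the 48 values were 0. Fgf8, a ligand of many embryonic signalling centres, was counted 3 and 6 times in mutants and 5 and 7 times in wild-type ovaries. Fgf5 had 7 and 6 counts against 3 and 2. The endocrine ligands Fgf15, Fgf21 and Fgf23, which act at a distance with Klotho proteins as co-receptors, had at most 2 counts in any library.

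The most abundant genes of the ligand family were not secreted ligands but intracellular FGF homologous factors, which bind voltage-gated sodium channels rather than FGF receptors. Fgf11 had 39.1 and 44.7 CPM in mutants and 37.3 and 43.8 CPM in wild-type ovaries. Within both pairs of same-numbered libraries the mutant exceeded the wild-type by less than 0.1 on the log2 scale (0.067 and 0.028), and the 95% interval of the log2 fold change was -0.27 to 0.37. Fgf13 had 9.89 and 14.8 CPM against 14.7 and 16.4 CPM, a log2 difference of -0.33 ± 0.22 (standard error) at an edgeR adjusted p of 1.00, and mutant replicate 1 stood below the other 3 libraries. Fgf12 stayed between 0.963 and 1.16 CPM. Per kilobase of the longest coding transcript, the wild-type mean of Fgf11 was 13.3 CPM and that of Fgf13 was 6.22 CPM, whereas Fgf18, the highest secreted ligand on this scale, was at 3.47 CPM and Fgf9 at 0.806 CPM.

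Fgfr2, the receptor through which Fgf9 acts in the testis, was the most abundant of the 35 genes and was higher in both mutant libraries. It had 250.5 and 215 CPM in mutant replicates 1 and 2, against 188 and 188 CPM in the wild-type libraries. The wild-type libraries were nearly equal, and both mutant libraries lay above them. The log2 fold change was 0.31 ± 0.10 (standard error), or 23.9% more than wild-type, with edgeR p-values of 0.0197 before and 0.706 after adjustment, so the difference did not pass the threshold. With any 1 library left out it stayed between 0.19 and 0.41, the lowest without mutant replicate 1. The summed pre-granulosa markers were also higher in both mutants. At an unadjusted p under 0.05 in edgeR's test, 3 of 9 were higher (2.95% of all genes) and 1 was lower (2.73% of all genes). In edgeR 0 passed the adjusted threshold, and DESeq2 called 1 higher and 1 lower (0.694% of all genes in either direction). The pre-granulosa list was chosen with earlier results of these data known, so these counts do not test it. The part of these markers in the Fgfr2 difference was not tested. Counts per gene do not separate the b and c isoforms of the receptor, which differ in the ligands they bind. The GENCODE M1 model of Fgfr2, on the minus strand of chromosome 7, holds a transcript that reaches into Ctbp2 on the same strand, where their exons share 314 bases.

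Fgfr4 was the least abundant receptor and was lower in both mutant libraries. Mutant ovaries had 33 and 27 counts and wild-type ovaries 122 and 74, which corresponded to 2.99 and 1.79 CPM against 7.09 and 4.19 CPM. The groups did not overlap, but replicate 1 was above replicate 2 in both genotypes. The exact Poisson intervals (95%, counting error only) of replicates 1 and 2 overlapped in mutants (2.06 to 4.20 and 1.18 to 2.61 CPM). In wild-type ovaries they did not (5.89 to 8.47 and 3.29 to 5.26 CPM). The log2 fold change of -1.25 ± 0.40 (standard error) had the largest size among the 23 genes, with a 95% interval from -2.20 to -0.30 and edgeR p-values of 0.0168 before and 0.670 after adjustment. With the replicate number as a block in the model, a fit that called 2.49% of all genes, Fgfr4 was the 1 gene of the 23 to pass (adjusted p = 0.0262 in edgeR). Within the pairs of same-numbered libraries the difference was -1.21 and -1.17 on the log2 scale. It was -0.82 without wild-type replicate 1 and -1.65 without mutant replicate 1, and so moved by over 1.5 times when the first of these was left out. Fgfr4 is known to be expressed in skeletal muscle progenitors. Summed skeletal muscle markers were 56.9 and 42.2 CPM in mutants against 193 and 35.9 CPM in wild-type ovaries. Their sum was lowest in wild-type replicate 2, whereas Fgfr4 was lowest in mutant replicate 2. Of the 6 muscle markers tested, 5 had a negative and 1 a positive fold change. Among them Myh3, picked after its values were seen, had 91.7 CPM in wild-type replicate 1 and between 1.36 and 5.26 CPM in the other 3 libraries. Of 7 interstitial cell markers, 6 had a negative fold change, as did 7758 of all 15442 genes tested. Of these 6, 4 had an unadjusted p under 0.05 in edgeR's test (2.73% of all genes were lower at that threshold). In the same test 0 had an adjusted p under 0.05. DESeq2 called 2 of the 7 lower (0.694% of all genes in either direction), and the replicate block 4 (2.49% of all genes in either direction). The marker lists were chosen with earlier results of these data known, so these counts do not test the lists. The part of skeletal muscle and interstitial markers in the Fgfr4 difference was not tested. Fgfr4 is a plus-strand gene of chromosome 13, at 55254001 to 55270120 (NCBIM37).

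For Fgfr1, Fgfr3 and Fgfrl1 the groups overlapped, and the interval of each gene holds both a rise and a fall. Fgfr1 had 132 and 112 CPM in mutants and 132 and 127 CPM in wild-type ovaries, with a 95% interval of the log2 fold change from -0.35 to 0.17. Fgfr3 had 47.4 and 55.7 CPM against 53.3 and 53.8 CPM, with an interval from -0.34 to 0.23. Fgfrl1, a receptor that lacks the kinase domain, had 33.0 and 35.4 CPM against 32.1 and 40.7 CPM, with an interval from -0.44 to 0.26. The edgeR adjusted p was 1.00 for all 3.

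Scaled to the length of the longest coding transcript, the 4 kinase receptors were in the order Fgfr2, Fgfr1, Fgfr3 and Fgfr4 in every library. Fgfr2 made up 59.5% and 57.4% of their summed level in the mutants and 50.7% and 51.9% in the wild-type libraries, which is 58.4% ± 1.46 (SD, n = 2) against 51.3% ± 0.793 (SD, n = 2). The groups did not overlap, and the exact permutation test (two-sided) gave p = 0.333, the smallest it can give for 2 against 2. Fgfr4 made up 0.947% and 0.637% against 2.55% and 1.54%. With the length of all annotated exons in place of the longest transcript, the Fgfr2 share lay between 55.2% and 57.2% in mutant and between 48.0% and 49.4% in wild-type ovaries. The summed level of the 4 receptors was 95.1 and 84.7 CPM per kilobase in mutant libraries against 83.6 and 81.9 in wild-type libraries. Exons of the Fgfr1 entry used here share 761 bases on the same strand with a second entry of that name. How reads in those bases were counted is not given, so the level of Fgfr1 and the shares are uncertain.

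**Figure D2:**
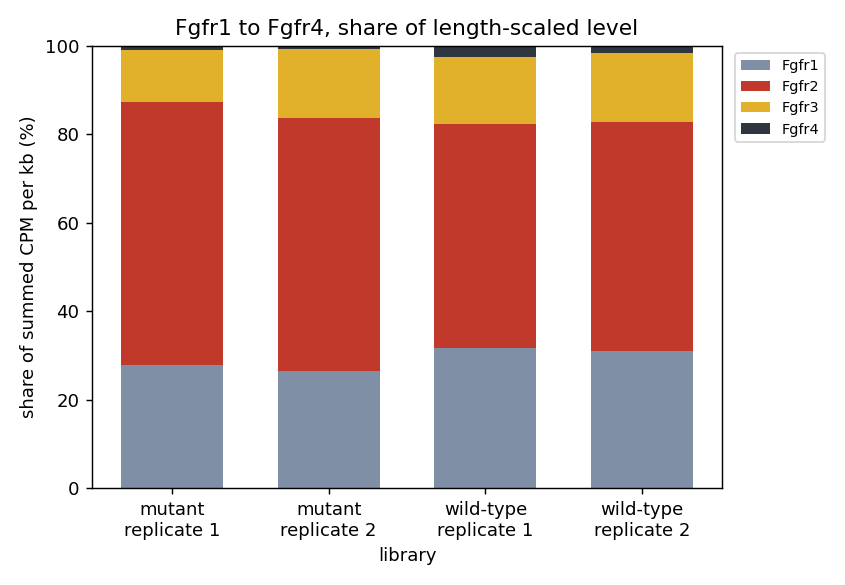
Share of Fgfr1, Fgfr2, Fgfr3 and Fgfr4 in their summed CPM per kilobase of longest coding transcript (percent, stacked bars from 0 to 100), with 1 bar for each library. Fgfr2 takes 57.4% or more in the mutant libraries and 51.9% or less in the wild-type libraries, and Fgfr4 is the thin band at the top.

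Of the 8 response genes, 0 passed the adjusted threshold in edgeR (0.0583% of all genes) or DESeq2 (0.694% of all genes). In edgeR's test 0 had an unadjusted p under 0.05 (5.69% of all genes). These shares are small, so the counts of 0 do not set the 8 genes apart from all genes. Their fitted log2 fold changes ranged from -0.52 to 0.12, with a median of -0.012. Dusp6, the phosphatase that inactivates ERK and is itself induced by FGF signals, had 24.2 and 18.8 CPM in mutants and 22.1 and 20.5 CPM in wild-type ovaries. The wild-type libraries lay between the mutant ones, and the 95% interval of the log2 fold change was -0.38 to 0.39. Etv5, the more abundant of the ETS genes, had means of 76.2 ± 15.4 CPM (SD, n = 2) in mutants and 76.1 ± 9.52 CPM (SD, n = 2) in controls, and its interval was -0.38 to 0.38.

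Etv4, an ETS factor of the same PEA3 subfamily as Etv5, was lower in both mutant libraries. It had 81 and 83 counts against 170 and 149, or 7.35 and 5.52 CPM against 9.88 and 8.44 CPM. The groups did not overlap, and the log2 fold change was -0.52 ± 0.24 (standard error), with edgeR p-values of 0.068 before and 0.938 after adjustment. The differences within the pairs were -0.42 and -0.60 on the log2 scale, and with any 1 library left out the fitted value stayed between -0.73 and -0.32. Etv1, the third gene of that subfamily and not among the 35, had 4.36 and 3.59 CPM in mutant and 6.97 and 6.52 CPM in wild-type libraries, a log2 difference of -0.77 ± 0.25 (standard error) at an edgeR adjusted p of 0.704. Etv4 is a minus-strand gene of chromosome 11, at 101631056 to 101646685 (NCBIM37).

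The Sprouty genes, which encode feedback inhibitors of receptor tyrosine kinase signalling, overlapped between the groups. Spry1 had 22.6 and 17.5 CPM in mutants and 17.8 and 19.0 CPM in wild-type ovaries. Spry2 lay between 15.2 and 17.4 CPM in all 4 libraries. Spry4 had 11.1 and 7.58 CPM against 10.8 and 10.9 CPM, with mutant replicate 2 below the other 3 libraries. Of the Spred genes, which hold RAS inactive through neurofibromin, Spred1 had 120 and 107 CPM against 124 and 131 CPM, so that both mutant libraries were lower. Its log2 fold change of -0.16 ± 0.10 (standard error) had edgeR p-values of 0.153 before and 1.00 after adjustment. Spred2 lay between 33.2 and 35.7 CPM in all libraries, with a 95% interval of the log2 fold change from -0.30 to 0.25. Over the 8 response genes these intervals reached no further than -1.08 and 0.52.

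**Figure D3:**
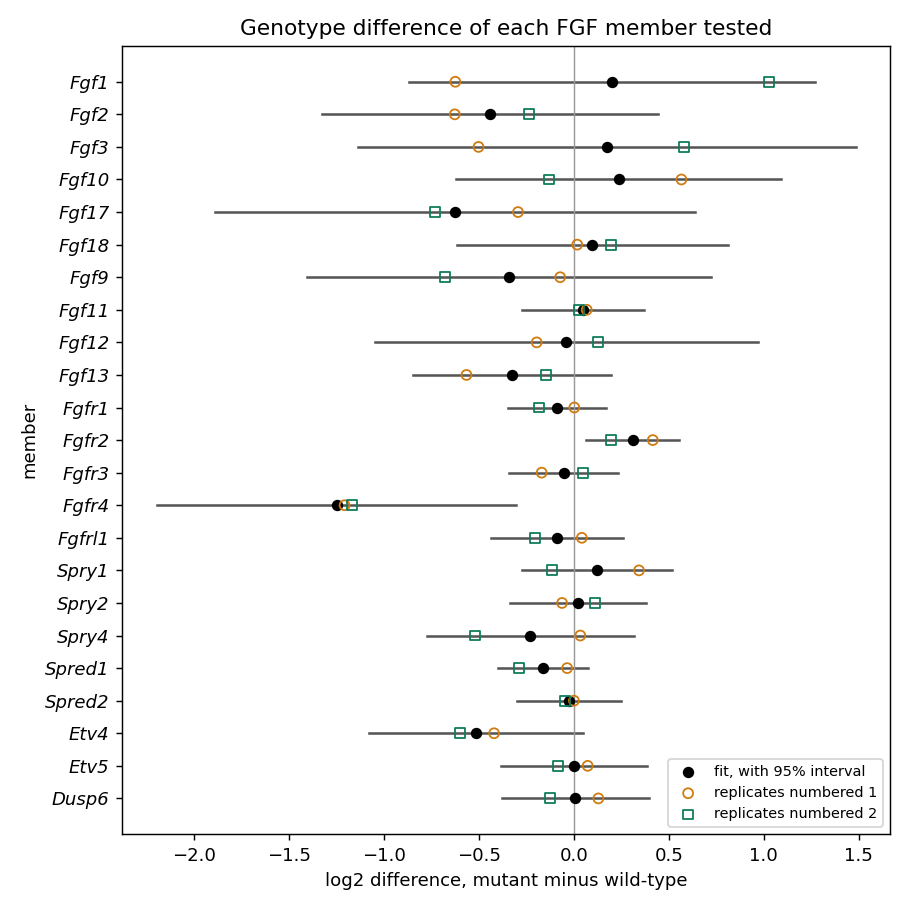
Log2 difference of mutant minus wild-type ovaries for each of the 23 genes tested. Filled points are the fitted values with 95% intervals from edgeR's quasi-likelihood fit, and open circles and squares are the differences within the libraries numbered 1 and 2. The intervals of Fgfr2 and Fgfr4 leave out 0 before adjustment for the number of genes tested, and those of the other 21 include it.

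For most of the 23 genes, as for most genes tested, the larger difference between replicates of 1 genotype exceeded the fitted genotype difference. This was therefore not particular to the FGF pathway genes. The fitted log2 fold change exceeded the larger of the 2 differences between replicates for 4 of 23 genes (17.4%), against 21.2% of all genes. In the mutant ovaries, the 8 response genes were all lower in replicate 2 than in replicate 1, by 0.018 to 0.54 on the log2 scale, whereas 52.8% of all genes tested were lower in that library. In the wild-type ovaries 5 of the 8 were lower in replicate 2, against 50.1% of all genes. For 6 of the 8 the difference between the mutant libraries was larger than that between the genotypes, against 65.6% of all genes. Summed markers were also lower in mutant replicate 2 than in mutant replicate 1 for every cell marker list but that of germ cells, as given above. Summed germ cell markers went the other way, with 1643 and 1960 CPM in mutant replicates 1 and 2 and 1752 and 1849 CPM in the wild-type replicates. The part of these markers in the difference between the mutant libraries was not tested. That difference compares single libraries and has no test.

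Within the pairs of same-numbered libraries, 7 of the 23 genes were lower in the mutant in both pairs, against 27.3% of all genes, and 3 were higher in both, against 26.5%. The 7 were Fgfr4, Etv4, Fgf2, Fgf17, Fgf13, Fgf9 and Spred1, and the 3 were Fgfr2, Fgf18 and Fgf11. The remaining 13 genes had opposite signs in the pairs. The median difference of the 23 genes was -0.036 in the first pair and -0.12 in the second, beside -0.00027 and -0.0042 for all genes tested. Same-numbered libraries also carry neighbouring library numbers in the column names, and the labels do not say what either number marks.

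**Figure D4:**
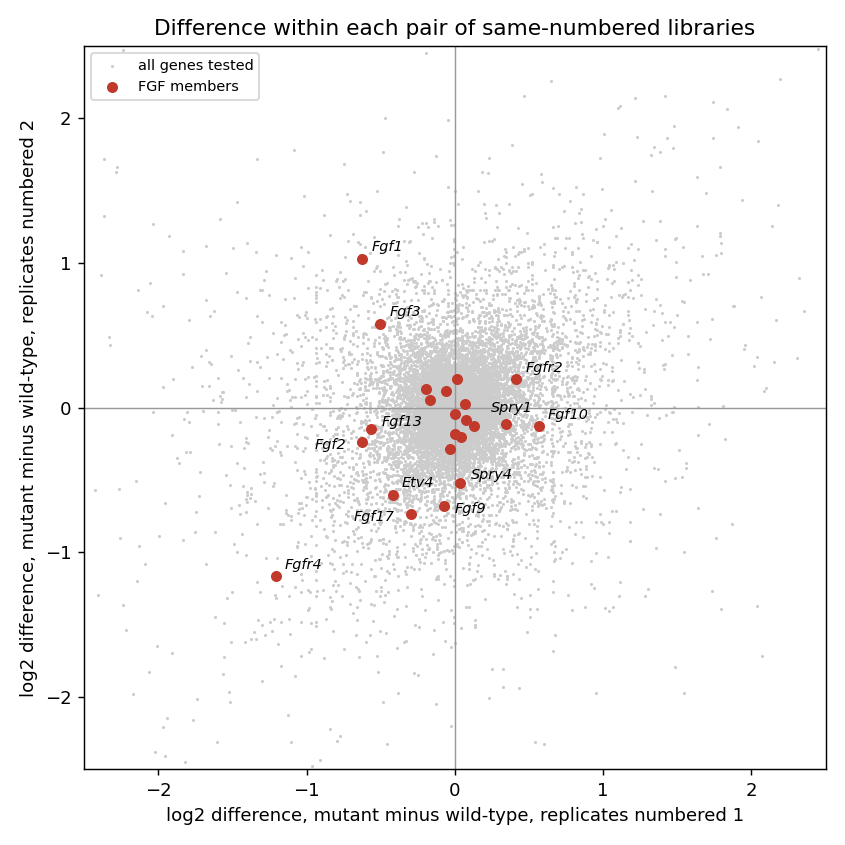
Log2 difference of mutant minus wild-type within the libraries numbered 1 (x axis) and within those numbered 2 (y axis), for the 23 FGF pathway genes (red) and all genes tested (grey, with 49 genes beyond the axes left out). Fgfr4 lies apart from the others at -1.21 and -1.17, Fgfr2 lies above 0 in both pairs, and Fgf1 and Fgf3 have opposite signs in the pairs.

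Other genes of the pathway, listed by role, numbered 71, of which 70 were in the file and 62 were tested. Of these, 0 passed at an adjusted p under 0.05 in edgeR (0.0583% of all genes) or DESeq2 (0.694% of all genes). At an unadjusted p under 0.05 in edgeR's test 2 were higher (2.95% of all genes) and 7 were lower (2.73% of all genes), and the median log2 fold change was -0.031. The adaptors that link receptors to RAS (12 tested) and the RAS, RAF, MEK and ERK genes (12 tested) had 0 genes at an unadjusted p under 0.05 (5.69% of all genes). Their fold changes ran from -0.16 to 0.14 and from -0.074 to 0.074 on the log2 scale. The genes with the smaller p-values belonged to the other groups. Among co-receptors, Flrt2, a membrane protein that binds FGF receptors, had 92.3 and 91.2 CPM in mutant and 115 and 134 CPM in wild-type libraries (edgeR adjusted p = 0.417). Cdh2 (N-cadherin), which can associate with Fgfr1, had 68.0 and 72.6 CPM against 93.9 and 93.9 CPM, with an adjusted p of 0.368. Among genes of heparan sulfate synthesis, Ext1, a polymerase of the sugar chain, had 89.3 and 71.1 CPM against 118 and 94.6 CPM, with an adjusted p of 0.806. Hs6st2, which adds sulfate groups to the chain, had 134.6 and 133 CPM against 107 and 103 CPM, with an adjusted p of 0.438. Among further feedback and target genes, Ccnd1, the cell cycle gene for cyclin D1, had 68.9 and 67.9 CPM against 91.1 and 85.8 CPM, and the ERK phosphatase Dusp9 had 168 and 154 CPM against 197 and 211 CPM, with adjusted p-values of 0.477 and 0.530 in edgeR's test. In Ccnd1, 818 bases of exons overlap a gene on the opposite strand, so its counts are uncertain. The groups did not overlap for any of these 6 genes (30.9% of all genes), which were named because they passed with the replicate block, so that their separation is partly fixed by that choice.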

How the data were processed

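RNA-seq libraries from E13.5 mouse ovaries were compared between Sall1 mutants (n = 2) and wild-type embryos (n = 2). The authors aligned reads with STAR 2.6.1d and counted them per gene with summarizeOverlaps, and the submitters' processing notes name mm9. The deposited values are raw counts per gene symbol, without normalization or pooling. Annotation, strand handling and the treatment of reads in shared exons are not given in the sources used here. Each of the 4 columns was matched to a library by genotype and replicate number, and 0 were left unused.

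Counts were analysed in R 4.3.3 with edgeR 4.0.16 (TMM, filterByExpr, quasi-likelihood F-test, Benjamini-Hochberg adjustment over all 15442 genes tested, threshold 0.05), with genotype as the only factor and all 4 libraries in the fit. The standard error is the fold change over the root of the F statistic. Differences between single libraries use log2 CPM, to which a prior count of 2 was added. DESeq2 1.42.0 with default settings, named in the study's methods, was an alternative, as were other scalings, other filters, a replicate block and leaving out each library. The fits were tested on simulated data with the same dispersion for all genes and no effect shared by same-numbered libraries. That simulation cannot show how the fits behave where such an effect is present. Replicates of a group differed by more than sampling noise (chi-square per degree of freedom of 11.8 in mutant and 13.2 in wild-type libraries) and were counted separately.

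Symbols were looked up in GENCODE M1 (NCBIM37) for positions, lengths and exon overlaps. NCBIM37 is the same assembly as mm9. For Fgfr1, a name given to 2 gene entries, the larger was used. The gene members and lists, pathway and cell marker lists included, were chosen with earlier results of these data known. Genes named with values were the 23 with a mean of at least 10 counts, Sall1, and those other pathway genes that passed the adjusted threshold in edgeR, in DESeq2 or with the replicate block. Fgf5, Fgf8, Fgf16, Fgf20, Etv1 and Myh3, and the comparison of the mutant libraries with each other, were chosen after their values were seen.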

Additional observations from a re-analysis of the deposited data

How the results depend on the processing

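The count of FGF pathway genes called, 0, was the same with DESeq2, both other scalings, both other filters and each library left out (range 0 to 0). It was 2 at an unadjusted p under 0.05 (Fgfr2 and Fgfr4) and 1 with the replicate block (Fgfr4, adjusted p = 0.0262, log2 fold change -1.23), beside 2.49% of all genes. Over all genes the 9 calls became 385 with the replicate block, 105 with DESeq2, 28 with no filter on low counts, 19 with at least 10 counts in every library and 878 at an unadjusted p under 0.05, and ranged from 4 (without wild-type replicate 2) to 130 (without mutant replicate 1). The lone library of a group was then assumed to vary like the other group. Same-numbered libraries share a replicate number and carry neighbouring library numbers, and the labels explain neither. Deviations of same-numbered libraries from their group means correlated at 0.481 over all genes and 0.163 over the 23 FGF pathway genes, across genes that are not independent replicates. Of the other pathway genes, the replicate block called 6, Hs6st2 higher and Ccnd1, Dusp9, Cdh2, Flrt2 and Ext1 lower.

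The median log2 fold change of the 23 genes minus that of all genes, -0.040, ranged from -0.11 (without wild-type replicate 2) to -0.0083 with each library left out. The Sall1 log2 fold change ranged from 2.70 to 3.04. That of Fgf9 ranged from -0.96 to 0.12, and those of Fgfr2 (0.19 to 0.41) and Fgfr4 (-1.65 to -0.82) kept their sign, as did Etv4 (-0.73 to -0.32), Fgf2 (-0.66 to -0.27), Fgf13 (-0.65 to -0.076), Fgf17 (-1.003 to -0.099) and Spred1 (-0.25 to -0.080). The value nearest 0 was without mutant replicate 1 for Fgf2 and Fgf13, without mutant replicate 2 for Etv4 and Spred1, and without wild-type replicate 2 for Fgf17. Signs turned, at an adjusted p of at least 0.05, for Fgf1 (-0.25 to 0.76), Fgf3 (-0.53 to 0.59), Fgf10 (-0.024 to 0.47), Fgf11 (-0.062 to 0.18), Fgf12 (-0.16 to 0.10), Fgf18 (-0.084 to 0.32), Fgfr1 (-0.21 to 0.028), Fgfr3 (-0.18 to 0.055), Fgfrl1 (-0.25 to 0.10), Spry1 (-0.071 to 0.29), Spry2 (-0.061 to 0.12), Spry4 (-0.52 to 0.024), Spred2 (-0.078 to 0.027), Etv5 (-0.22 to 0.19) and Dusp6 (-0.18 to 0.18). Dusp6 also turned, from 0.0082 to -0.0037, with upper-quartile scaling. The cause of these changes was not tested. Depth limits the ligands most, since 12 of 22 did not pass the filter.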
